A study of Mus musculus with 4 samples.

Results

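The genes of the neuromuscular junction were followed in skeletal muscle through 9 members: the acetylcholine receptor subunits Chrna1, Chrnb1, Chrnd, Chrne and Chrng, the receptor-organising genes Musk and Rapsn, the esterase gene Ache and the adhesion molecule gene Ncam1. They were chosen by name, as a functional group and with earlier results of these data known, and every probe set that the platform annotation assigns to 1 of them alone was used. All 9 were measured, by 14 probe sets, out of 8251 named genes and 12422 probe sets tested. Mutant mice carried no functional Crhr2 gene (Crhr2-/-, here KO), and their littermates were wild type (Crhr2+/+, here WT). All mice were males of 6.5 months on a C57BL/6x129 background, were kept on chow and had received no treatment. Gastrocnemius and soleus were combined. Each genotype was represented by 4 mice, whose RNA was mixed in pairs, and each of the 2 resulting pools was hybridised to 1 Affymetrix U74Av2 array. The p-values therefore measure the spread between pools, and the differences between single mice are not seen. How the allele was built is not stated in the labels.

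At the junction the motor nerve releases acetylcholine onto a small patch of the muscle fibre where the receptor is packed densely. The receptor of adult muscle is a ring of alpha, beta, delta and epsilon subunits, and in fetal or denervated muscle the gamma subunit takes the place of epsilon. Nerve-derived agrin acts through LRP4 on the kinase MuSK, and rapsyn then anchors the receptors, while acetylcholinesterase ends the signal. Nuclei beneath the junction transcribe the subunit genes strongly, and electrical activity silences them elsewhere along the fibre. Loss of the nerve lifts this block and raises the gamma subunit, MuSK and NCAM.

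Values below are the authors' linear signal intensities, in arbitrary units that depend on each probe set, so no gene's level was set against another's. Crhr2 itself read 100.4 and 75.1 in KO muscle, against 154 and 192 in WT muscle, on its brighter probe set. Its log2 fold change was -0.88 ± 0.25 (SE, limma adjusted p = 0.803). The dimmer Crhr2 probe set read 36.7 and 22.7 in KO, against 18.8 and 45.3 in WT, and did not separate the genotypes (-0.032 ± 0.43). Whether either lies in the deleted exons is not known here, so they are a limited check of the labels. Muscle fibre genes were bright: 19 of 20 such markers, all measured, lay above the median probe set, and skeletal actin (Acta1) read 19099 and 21770 in KO, against 20692 and 19525 in WT. Summed signals of 14 exocrine pancreas markers were 14199 and 4355 in KO and 2050 and 1989 in WT. Those of 19 liver markers were 2415 and 2525 in KO and 4314 and 4281 in WT. The 3' to 5' signal ratios of control transcripts, which fall or rise with RNA integrity and labelling, were 0.729 and 0.866 in KO and 0.624 and 0.686 in WT for actin. For Gapdh they were 1.04 and 0.988 in KO and 0.889 and 0.914 in WT.

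None of the 14 probe sets passed the test between genotypes. With limma over all 12422 probe sets, 0 had an adjusted p under 0.05 (0.0% called), and 674 (5.43%) had an unadjusted p under 0.05, 355 of them lower in KO (2.86%). Of the 14 probe sets, 1 reached that unadjusted level, a Chrng probe set that was lower in KO. The log2 fold changes, taken after adding a pseudocount of 14 to each intensity, were below 0 for 10 probe sets and above 0 for 4. Their median was -0.11, beside 0.00017 for all probe sets tested. The 2 KO arrays lay wholly below or above the 2 WT arrays for 5 of the 14 (35.7%), 3 lower and 2 higher in KO. Among all probe sets this share was 34.6%, with 17.6% lower and 17.0% higher, so the share among the junction genes was near the background. No junction probe set met a size rule of a 2-fold or larger difference without overlap and with a mean above the median probe set, which 0.443% of all probe sets met. Of the 14, 6 were dimmer than the median probe set: both for Chrng, and those for Chrnd and Musk, 1 of 3 for Chrne and 1 of 3 for Ncam1. The pseudocount shrinks the fold changes of such dim probe sets, and whether their signals lie above background was not tested. In bulk muscle, fewer cells or nuclei of a kind and less RNA in each cannot be told apart.

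**Figure D1:**
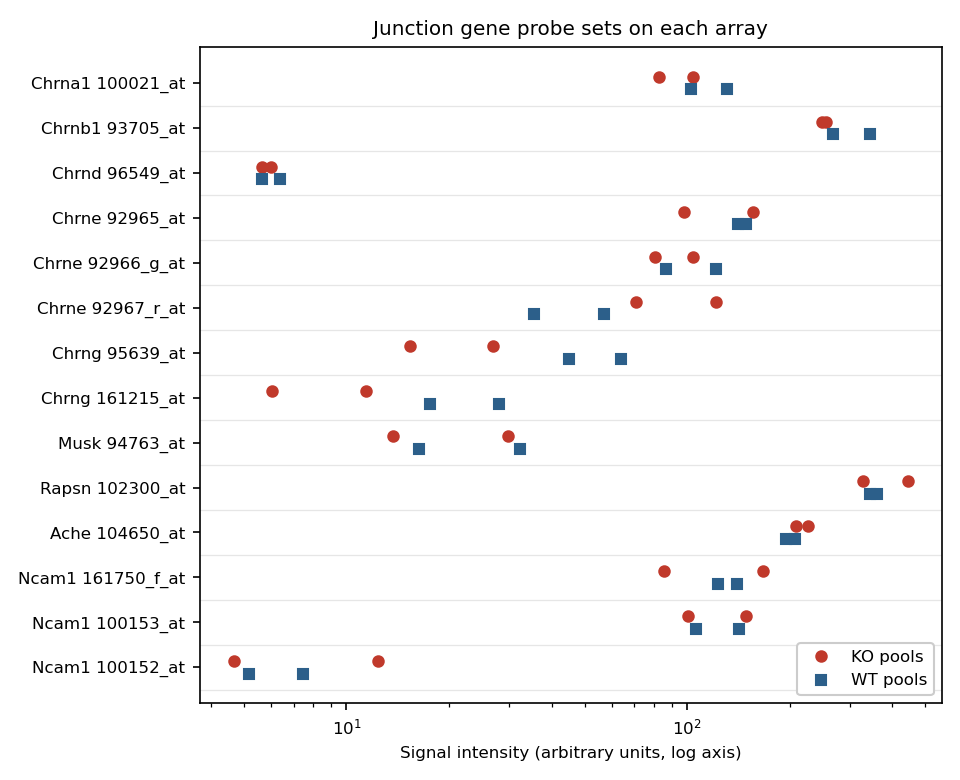
Signal intensity (arbitrary units, log axis) of the 14 probe sets of the 9 junction genes, with a red circle for each KO pool and a blue square for each WT pool. Both Chrng probe sets show the KO pools to the left of the WT pools, at 15.4 and 27.0 against 44.9 and 64.1 for 95639_at, whereas most other probe sets overlap.

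The gamma subunit gene Chrng (Entrez gene 11449) had the lowest fold changes of the 9 genes, on 2 separate probe sets. Probe set 95639_at read 15.4 and 27.0 in KO muscle, against 44.9 and 64.1 in WT muscle. The dimmer probe set, 161215_at, read 11.4 and 6.05 in KO, against 28.1 and 17.6 in WT. On both probe sets each KO pool was below each WT pool. Mean KO signal was 38.8% of mean WT signal on 95639_at (21.2 ± 8.20 in KO and 54.5 ± 13.6 in WT, SD, n = 2 each) and 38.2% on 161215_at (8.73 ± 3.79 in KO and 22.9 ± 7.38 in WT). On the log2 scale with the pseudocount the fold changes were -0.97 ± 0.38 and -0.70 ± 0.31 (SE). The 95% confidence intervals from the fit were -1.90 to -0.045 for 95639_at and -1.44 to 0.045 for 161215_at. Neither passed adjustment, with limma adjusted p = 0.887 and unadjusted p = 0.0425 for 95639_at, rank 595 of 12422. For 161215_at the limma adjusted p was 0.908 and the unadjusted p 0.0613, rank 820. An exact two-sided permutation test of either gave p = 0.333, the smallest value that 2 arrays against 2 allow.

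The size of the Chrng difference depended on the pseudocount. With a pseudocount of 80% of the table's median in place of 20%, the log2 fold changes were -0.52 and -0.29. With 5% they were -1.26 and -1.12. Leaving out any 1 array left 95639_at between -1.21 and -0.73 and 161215_at between -0.90 and -0.49, with limma unadjusted p of 0.0532 to 0.177 and of 0.0530 to 0.249. The arrays that read highest and lowest differed between the probe sets: WT replicate 2 was highest and KO replicate 1 lowest on 95639_at, but WT replicate 1 was highest and KO replicate 2 lowest on 161215_at. No detection calls came with the table, so whether these dim signals lie above background was not tested.

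The stretch just upstream of Chrng is shown beside that of Chrne because the subunits they encode replace each other in the receptor. Both are the 250 bases before the annotated RefSeq start, in build GRCm38.p6, written 5′ to 3′ on the gene's strand. Chrng lies at chr1:87205561-87205810 on the plus strand and Chrne at chr11:70619195-70619444 on the minus strand. Capitals mark matches to the E-box letters CANNTG, which myogenic factors such as MyoD and myogenin bind in their CAGCTG form, and in Chrne also the letters CCGGAA, the core of the N-box bound by the ETS factor GABP.
Chrng: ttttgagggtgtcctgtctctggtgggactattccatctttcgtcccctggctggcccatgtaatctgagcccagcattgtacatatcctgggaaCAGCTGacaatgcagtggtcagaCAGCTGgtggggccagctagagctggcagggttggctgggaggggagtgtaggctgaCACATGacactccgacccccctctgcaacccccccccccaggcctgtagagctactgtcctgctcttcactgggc
Chrne: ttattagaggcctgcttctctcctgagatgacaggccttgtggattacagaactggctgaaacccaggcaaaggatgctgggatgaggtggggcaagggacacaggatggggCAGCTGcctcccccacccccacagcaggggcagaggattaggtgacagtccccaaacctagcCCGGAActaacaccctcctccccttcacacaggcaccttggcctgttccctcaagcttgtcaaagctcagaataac

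Chrng had 2 CAGCTG matches, beginning 155 and 132 bases before the start, and a further CANNTG match at 75 bases. Chrne had 1 CAGCTG match at 138 bases and 1 CCGGAA match at 76 bases. Of the 9 genes 6 had an entry in the promoter table, and 4 of these (Chrng, Chrna1, Chrne and Musk) held a CAGCTG, of which Chrna1, the alpha subunit gene, held 2. All 6 held a CANNTG and only Chrne among them held CCGGAA on either strand. Over 32851 promoters of that length, 13.0% held a CAGCTG and 1.26% held at least 2. A CANNTG, which counts every CAGCTG too, was found in 66.2%, and CCGGAA on either strand in 12.0%. A match to these letters is a description of the sequence, and binding was not measured.

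The epsilon subunit gene Chrne (Entrez gene 11448), the adult counterpart of Chrng, was read by 3 probe sets that disagreed. Probe set 92965_at read 157 and 98.1 in KO, against 141 and 149 in WT, so the WT pools lay between the KO pools. Probe set 92966_g_at read 104 and 80.2 in KO, against 122 and 86.8 in WT, and the groups overlapped. Their log2 fold changes were -0.20 ± 0.27 and -0.15 ± 0.29 (SE), with 95% intervals of -0.85 to 0.44 and -0.85 to 0.55. The remaining probe set, 92967_r_at, read 121 and 70.9 in KO, against 35.6 and 56.9 in WT, and both KO pools were above both WT pools. Its log2 fold change was 0.86 ± 0.38 (SE, 95% interval -0.073 to 1.78, limma adjusted p = 0.908, unadjusted p = 0.0651). The suffix _r_at is Affymetrix's mark for probe sets designed under relaxed rules. Both other probe sets changed sign with 1 array left out: 92965_at was 0.10 without KO replicate 2, and 92966_g_at was 0.07 without WT replicate 1 and 0.01 without KO replicate 2.

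The balance of gamma to epsilon was compared as the log2 ratio of the brightest probe set of each gene on each array. Only its change between arrays has meaning, because the probe sets differ in sensitivity. The ratio was -2.54 and -1.46 in KO, against -1.40 and -1.06 in WT. Both KO pools were thus below both WT pools, the nearest by a small margin. The change was -0.77 on the log2 scale (SD 0.77 in KO and 0.24 in WT, n = 2 each, exact two-sided permutation p = 0.333, the smallest possible). Leaving out KO replicate 1 made it -0.22, leaving out KO replicate 2 made it -1.31, and the larger pseudocount made it -0.37. Over all 6 pairings of a Chrng with a Chrne probe set the change was below 0, from -1.83 to -0.49, and in 5 of 6 the pools did not overlap. The 6 pairings share arrays and probe sets and are not independent. Both Chrng fold changes (-0.97 and -0.70) lay below every Chrne one, of which the lowest was -0.20. The sign of all 6 was therefore fixed by those values and adds nothing to them.

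**Figure D2:**
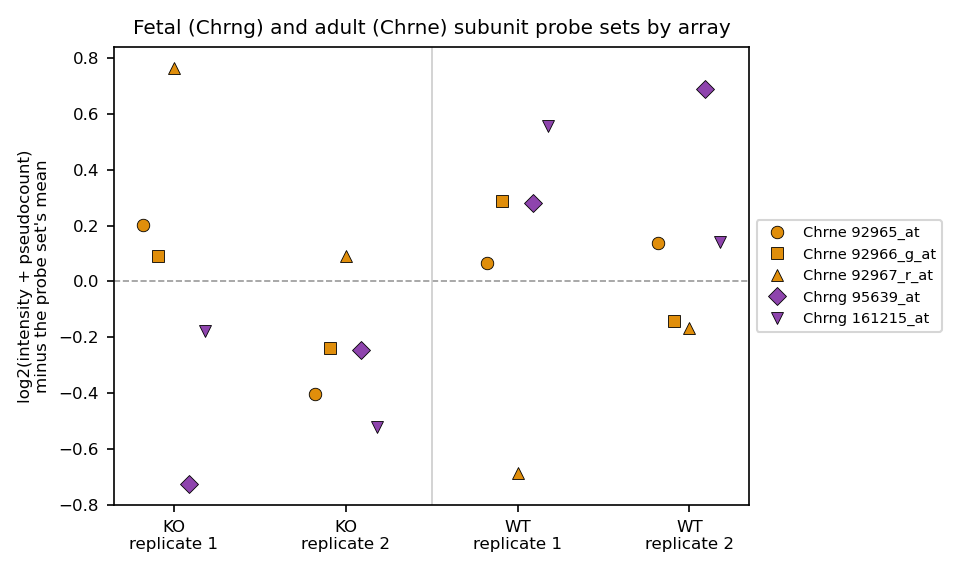
log2(intensity + 14) of the 2 Chrng probe sets (purple) and 3 Chrne probe sets (orange) on each array, after subtraction of the probe set's mean over the 4 arrays. Chrng values are below 0 in both KO pools and above 0 in both WT pools, while Chrne 92967_r_at runs the other way and the other Chrne probe sets cross.

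The subunits common to both receptor forms showed small differences. Chrna1, whose alpha subunit carries the acetylcholine-binding site, read 104 and 82.4 in KO, against 131 and 102 in WT. KO replicate 1 was just above WT replicate 2, so the groups overlapped narrowly. Its log2 fold change was -0.28 ± 0.26 (SE, 95% interval -0.92 to 0.36). Chrnb1, the beta subunit, through which rapsyn holds the receptor, read 256 and 249 in KO, against 268 and 345 in WT. Both KO pools were lower, but the nearest WT pool was close to them, and the fold change of -0.25 ± 0.17 (95% interval -0.67 to 0.16, limma adjusted p = 0.908) was -0.08 without WT replicate 2 and -0.43 without WT replicate 1. Chrnd, the delta subunit, was very dim on its only probe set, at 5.99 and 5.64 in KO, against 6.39 and 5.64 in WT. Its log2 fold change of -0.015 ± 0.19 (0.013 without WT replicate 1) is compressed by a pseudocount larger than its signal, so the array gave little information on delta. The interval of Chrna1 included -0.70, the lesser of the Chrng estimates, and that of Chrnb1, from -0.67, narrowly did not. That Chrng estimate had its own 95% interval of -1.44 to 0.045, which included the Chrnb1 value of -0.25. Whether Chrng differed from the other subunit genes was not tested.

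**Figure D3:**
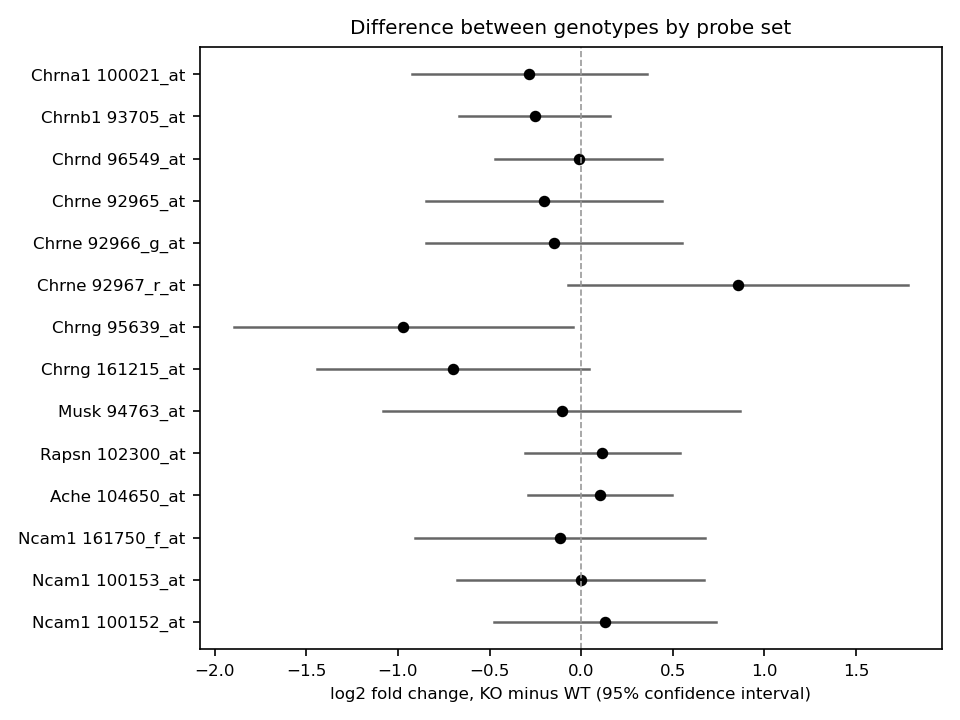
log2 fold change, KO minus WT, of the 14 junction probe sets, with points for the limma estimate and bars for its 95% confidence interval. Chrng 95639_at has the one interval that does not cross 0, from -1.90 to -0.045, and Chrne 92967_r_at lies farthest to the right at 0.86.

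Among the organisers of receptor clustering, no difference exceeded the spread between pools. Musk, the receptor kinase that starts clustering, was dim, at 29.7 and 13.7 in KO, against 32.3 and 16.3 in WT. The pools of each genotype differed from each other far more than the genotypes did. Its log2 fold change was -0.11 ± 0.40 (SE, 95% interval -1.08 to 0.87), and it turned to 0.20 without WT replicate 1 and 0.22 without KO replicate 2. Rapsn, which encodes the anchoring protein rapsyn, read 328 and 446 in KO, against 361 and 344 in WT, so the WT pools lay between the KO pools. Its log2 fold change was 0.11 ± 0.17 (95% interval -0.31 to 0.54) and -0.10 without KO replicate 2.

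Ache, the esterase that clears acetylcholine from the cleft, read 209 and 226 in KO, against 195 and 207 in WT. Both KO pools were higher, narrowly so at 209 against 207, and Ache varied least across arrays among the 8 junction probe sets brighter than the median. The log2 fold change was 0.10 ± 0.16 (SE), and its 95% interval of -0.29 to 0.50 was the narrowest of the 14. Ncam1, an adhesion molecule of nerve, of Schwann cells and of the fibre surface at the junction, was read by 3 probe sets, of which 100153_at and 100152_at put the 4 arrays in the same order and 161750_f_at did not. Probe set 100153_at read 101 and 149 in KO, against 106 and 142 in WT, a log2 fold change of -0.0037 ± 0.28. Probe set 161750_f_at, whose suffix marks probes that match a family of sequences, read 167 and 85.7 in KO, against 123 and 140 in WT, a log2 fold change of -0.11 ± 0.33 (SE). The very dim 100152_at read 4.66 and 12.4 in KO, against 5.19 and 7.43 in WT (0.13 ± 0.25). All 3 overlapped between genotypes, and KO replicate 1 was the lowest array on 100153_at and 100152_at and the highest on 161750_f_at. Without 1 array the signs turned: 100153_at was 0.19 without WT replicate 2 and 0.25 without KO replicate 1, 161750_f_at was 0.32 and 100152_at -0.12 without KO replicate 2.

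Several junction genes differed between pools of one genotype. The sign of the difference between replicate 1 and replicate 2 was the same in both genotypes for 9 of the 14 probe sets and opposite for 5. These 14 include several probe sets of 1 gene, and the share over all probe sets was not counted. Across all probe sets tested, the replicate differences of KO and WT correlated at 0.0034. Musk was higher by 0.66 on the log2 scale in KO replicate 1 than in KO replicate 2, and by 0.61 in WT replicate 1 than in WT replicate 2. For Chrna1 these within-genotype differences were 0.29 and 0.31, for Chrne 92966_g_at 0.33 and 0.43, and for Chrng 161215_at 0.34 and 0.41. Chrng 95639_at and Ncam1 100153_at ran the other way, with -0.48 and -0.41 for Chrng and -0.51 and -0.38 for Ncam1. Opposite signs came with Chrne 92967_r_at, at 0.67 in KO and -0.52 in WT, Ncam1 161750_f_at, at 0.86 and -0.17, and Chrne 92965_at, at 0.61 and -0.070.

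Of the junction probe sets brighter than the median, Ncam1 161750_f_at had the widest range over the 4 arrays, 0.86 on the log2 scale. Its pattern, highest in KO replicate 1 and lowest in KO replicate 2, was most closely shared by Cdc23, a subunit of the anaphase-promoting complex, at a Euclidean distance of 0.096 between mean-centred log2 values. Nqo1, a quinone reductase, and Tinf2, a telomere-protecting protein, followed at 0.112 each. The search covered 5619 probe sets over 4 arrays, so near matches to any pattern are plentiful. Among the other junction genes Chrne 92965_at came nearest, at 0.215, with 40 of the 5619 probe sets nearer than it.

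Genes that build or surround the junction showed no difference past the threshold. Of 40 such organiser and matrix genes 30 were measured, 13 were higher and 17 lower in KO, and 0 passed in either direction (median log2 fold change -0.051, against -0.0046 over the brightest probe sets of all 8251 genes). The pools did not overlap for 7 of the 30 (23.3%, below the 34.6% of all genes). Lama2, the laminin chain of the fibre's basement membrane, read 122 and 204 in KO, against 266 and 214 in WT (-0.56 ± 0.27). Lamb2, the laminin chain concentrated at the synaptic cleft, read 349 and 391 in KO, against 468 and 405 in WT (-0.23 ± 0.14). Both were lower in each KO pool than in each WT pool, but they were named for their small p in this list. The other laminin chains of the list, Lama4 and Lama5, are named after their values were seen. They overlapped between genotypes (0.064 ± 0.15 and 0.070 ± 0.15). Erbb3, a neuregulin receptor of muscle and Schwann cells, read 123 and 85.3 in KO, against 72.0 and 60.0 in WT (0.55 ± 0.30), with -0.22 ± 0.21 on its other, very dim probe set. The kinase Cdk5 had 0.23 ± 0.19, and Colq, the collagen tail that tethers the esterase, had -0.31 ± 0.27. Agrn, the clustering signal itself, had -0.23 ± 0.21, with 0.049 ± 0.22 on its other probe set.

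Transcription factors and kinases that act on the subunit genes were balanced, with 11 of 23 measured genes higher, 12 lower and 0 past the threshold in either direction (median -0.0088). Ets2, a member of the ETS family, read 266 and 289 in KO, against 174 and 221 in WT (0.47 ± 0.18, limma adjusted p = 0.863). Myf6, the myogenic factor of mature fibres, read 1190 and 1093 in KO, against 966 and 937 in WT (0.26 ± 0.10, limma adjusted p = 0.903). Both were higher in each KO pool than in each WT pool. Id3, an inhibitor of E-box binding, had -0.33 ± 0.20. Myogenin (Myog), which drives the subunit genes after denervation, is named here after its values were seen: it read 112 and 49.9 in KO, against 106 and 110 in WT, and only KO replicate 2 stood apart.

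Genes known to respond to denervation went both ways, with 8 of 16 measured genes higher, 8 lower and 0 past the threshold (median 0.058). The pools did not overlap for 8 of the 16 (50.0%, against 34.6% over all probe sets), 4 in each direction. An unadjusted p under 0.05 was reached by 2 higher and 2 lower genes, where 5.43% of all probe sets reached it. This list, like the others, was chosen with earlier results of these data known, so its shares are only a description. Nnat, a small membrane proteolipid, read 500.4 and 444 in KO, against 612 and 743 in WT (-0.50 ± 0.14, limma adjusted p = 0.803). Actc1, the cardiac actin that fetal muscle also makes, read 4951 and 4036 in KO, against 3446 and 3190 in WT (0.43 ± 0.13, limma adjusted p = 0.813), with 0.28 ± 0.28 on its other probe set. The metallothionein Mt2 had -0.71 ± 0.24. Ankrd1, a stress-responsive ankyrin-repeat protein and the gene with the highest fold change in this list, is named after its values were seen: it read 95.9 and 92.5 in KO, against 50.7 and 44.0 in WT (0.82 ± 0.30, limma adjusted p = 0.847). Runx1 and Myh3, the next by p and likewise named after their values were seen, ran the other way. Both were dimmer than the median probe set and lower in each KO pool than in each WT pool (-0.68 ± 0.37 and -0.56 ± 0.35).

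**Figure D4:**
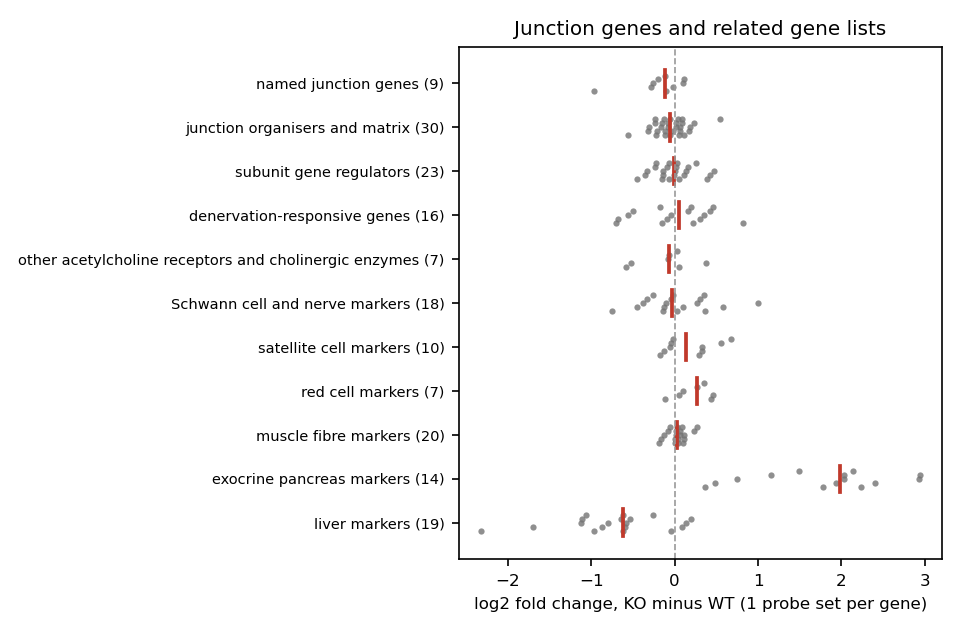
log2 fold change, KO minus WT, of each measured gene (grey points, 1 probe set per gene) in the junction genes and 10 related lists, with the list's median as a red bar and the number of genes in brackets. Junction, regulator and denervation lists centre near 0, at -0.11, -0.0088 and 0.058, while exocrine pancreas markers centre at 1.98 and liver markers at -0.62.

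Acetylcholine receptors of other tissues and the other cholinergic enzymes were all dimmer than the median probe set, with 7 of 20 measured, 3 higher, 4 lower and 0 past the threshold. The neuronal subunits Chrna6 and Chrna7 had -0.58 ± 0.31 and -0.53 ± 0.34, and the esterase relative Bche had 0.37 ± 0.46. Markers of cells that lie beside the fibre also had 0 genes past the threshold. Schwann cell and nerve markers were 8 higher and 10 lower of 18, with summed signals of 1740 and 1773 in KO and 1700 and 1879 in WT. Syt1, a synaptic vesicle protein, read 14.6 and 25.6 in KO, against 4.52 and 1.32 in WT (1.01 ± 0.27). Prph, a filament of peripheral neurons, had -0.75 ± 0.37, and Mag, of myelin, 0.58 ± 0.32. Satellite cell markers stand for the stem cells that also make NCAM and fetal subunits when they differentiate. They were 5 higher and 5 lower of 10, without overlap in 6 (60.0%, against 34.6% of all genes), 4 higher and 2 lower. Their sums were 3414 and 3361 in KO and 3783 and 3451 in WT, most of it from the widely expressed Itgb1, and without that gene they were 1064 and 1024 in KO and 955 and 956 in WT. Sdc4, Pax3 and Itgb1 had 0.33 ± 0.16, 0.67 ± 0.40 and -0.18 ± 0.11. Red cell markers, listed because mouse red cells also carry the Ache enzyme, were higher in 6 of 7 cases, without overlap in 1 (14.3%, against 34.6% of all genes). Their sums were 12524 and 10187 in KO and 9620 and 7750 in WT, most of it from Hba-a1. Without that gene the sums were 3841 and 2439 in KO and 2975 and 2390 in WT, and overlapped. Hba-a1, Hbb-b2 and Bpgm had 0.46 ± 0.14, 0.35 ± 0.33 and -0.11 ± 0.12. Muscle fibre markers were 15 higher and 5 lower of 20, with sums of 173742 and 191144 in KO and 177039 and 179307 in WT, and Des, Myh1 and Tnnt1 had -0.19 ± 0.13, -0.16 ± 0.12 and 0.26 ± 0.26. WT replicate 1 stood apart on genes of slow fibres, of which Myh7, Tnni1 and Tnnc1 are named after their values were seen. Myh7, the myosin of slow fibres, read 3452 and 2872 in KO, against 1968 and 3666 in WT. Tnnt1, Tnni1 and Tnnc1 were likewise lowest on WT replicate 1. The part of fibre content in the junction gene values was not tested, nor was the part of red cells in the Ache value.

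Signals of 2 other organs also lay apart by genotype. Exocrine pancreas markers were higher in KO in all 14 measured cases, without overlap in 12 (85.7%, against 34.6% of all genes). Their sum was largest in KO replicate 1. Clps, Zg16 and Ctrl, products of pancreatic acinar cells, had 2.14 ± 0.36, 2.94 ± 0.54 and 0.75 ± 0.14. Liver markers were lower in KO in 16 of 19 cases, without overlap in 10 (52.6%). Both of these lists were chosen with earlier results of these data known. Rbp4, Serpina1b and Alb had -1.11 ± 0.18, -0.97 ± 0.21 and -2.32 ± 0.61. The part of these organ signals and of the 3' to 5' ratios in the junction gene differences was not tested.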

How the data were processed

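Each of the 4 arrays gave 1 linear intensity per probe set, deposited by the authors in a single table. How the authors summarised probes, corrected background or called detection is not stated in the sources used. The table came scaled by the authors, since the 2% trimmed mean was 200.0 on each array, and log2 medians differed by 0.062. Of 12488 probe sets 66 controls were left out and 12422 tested without a filter. A pseudocount of 14, which is 20% of the median intensity, was added before taking log2. The fit of genotype used limma 3.58.1 under R 4.3.3 (lmFit, eBayes with intensity trend, Benjamini-Hochberg over all tested probe sets, threshold 0.05, two-sided). On simulated data with independent normal errors, only its mean error and the interval cover of unchanged probe sets had to pass a check. How well it calls differences of the size seen here is not reported. Single values had an exact permutation test. Genes were named from probe sets with 1 symbol (10833, of which 10817 were found in GRCm38.p6), and lists used the brightest probe set of each gene. Groups came from sample titles, because the labels exchange the genotype and tissue fields. The genes and lists were chosen with earlier results of these data known. Named by rule were all junction probe sets, Crhr2, the 3 genes of each list with the smallest p (6 for junction organisers) and the 3 nearest patterns. Promoter sequences are from RefSeq. The number of arrays limits the precision.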

Additional observations from a re-analysis of the deposited data

How the results depend on the processing

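The 11 alternatives were: pseudocounts of 80% and 5% of the median, quantile normalization, centring on array medians, probe sets above the median only, no intensity trend, a replicate block, and each array left out. In each, 0 probe sets passed with limma, and 664 to 832 had an unadjusted p under 0.05, except 346 among the brighter probe sets alone. Adjusted p of the Chrng probe sets ranged from 0.731 to 0.971 and the fold change stayed below 0 in every alternative that held them. Of 14 junction probe sets 6 kept their direction throughout, and 8 turned only with 1 array left out. There 1 genotype rests on 1 pool, so the sign of these 8 depended on which pools were used. Leaving out 1 array in turn gave -0.042 to 0.013 for Chrnd, -0.51 to 0.10 for Chrne 92965_at, -0.36 to 0.066 for Chrne 92966_g_at, -0.44 to 0.22 for Musk and -0.10 to 0.33 for Rapsn. For Ncam1 it gave -0.55 to 0.32 on 161750_f_at, -0.26 to 0.25 on 100153_at and -0.12 to 0.38 on 100152_at. The 55 probe sets that met the size rule became 27 with the larger pseudocount, which shrinks fold changes by construction, and 90 to 115 with 1 array left out, where fewer arrays have to separate. The median of the junction probe sets ranged from -0.29 to -0.050 with 1 array left out. Deviations of same-numbered pools correlated at 0.0034 across probe sets, so the numbers were not taken as pairs. The replicate block left 0 probe sets called and 740 at an unadjusted p under 0.05, and changed no junction call. Among the brighter probe sets alone the ratio of Chrng to Chrne had no value, since Chrng is dim.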
